A study of Mus musculus with 18 samples.

Results

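Mitosis and spindle genes encode the machinery that condenses chromosomes, attaches them to the spindle, separates them and divides the cell. They were described here from a list of 44 genes, of which 43 were measured among the 17091 genes of the arrays; Mki67 was not analysed here. Each was represented by its brightest probe set, averaged over all arrays. The genes were placed by textbook role into 5 groups: cyclins, kinases and entry regulators (10 genes), centromere, kinetochore, checkpoint and passenger complex (13), motors and spindle (8), cytokinesis (6) and anaphase and chromosome (6 measured of 7).

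The arrays measured total RNA from 18 mouse samples, of genotype wild-type or CCNC-/- (cyclin C knockout). Embryonic stem (ES) cells, primary fibroblasts from mouse embryos and the E18.5 embryonic brain each had 3 wild-type samples, named control in their titles, and 3 knockout samples, all called biological replicates. The sources used here do not give the strain, the sex, the way the Ccnc allele was deleted or the number of clones or embryos behind the ES cells and fibroblasts. All values are on the log2 scale, so that a difference of -1 is a halving of signal, and a gene was called changed at a Benjamini-Hochberg adjusted p below 0.05 over all 17091 genes in limma.

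Cyclin C is the partner of the Mediator kinases CDK8 and CDK19 and is not itself one of the mitotic cyclins. In dividing cells the mitotic genes are transcribed late in the cell cycle, peak between the end of S phase and mitosis, and are shut off when cells leave the cycle. Much of this timing runs through the DREAM and MYB-MuvB complexes, the forkhead factor FOXM1 and the trimeric factor NF-Y, which act at promoter elements known as the cell-cycle genes homology region (CHR) and the CCAAT box. Cultured ES cells and fibroblasts divide, whereas the neurons of the late embryonic brain do not.

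The samples matched their labels. The mean of 7 ES cell markers (among them Pou5f1 and Nanog) was 12.53 to 13.14 in ES cell arrays and 6.40 to 7.36 elsewhere. The mean of 8 fibroblast markers was 12.23 to 12.47 in fibroblasts and 7.04 to 8.89 elsewhere, and that of 8 neuron markers was 11.79 to 12.07 in brain and 6.59 to 7.40 elsewhere. Knockout ES cells kept 19.4% of the wild-type Ccnc signal, knockout fibroblasts 40.8% and knockout brain 61.8%. Each knockout array lay below every wild-type array of its cell type, although the brain difference was not called (limma adjusted p = 0.627, and 0.0426 with the replicate number as a block). Knockout ES cell array 1 stood apart in 10 extraembryonic endoderm markers, whose mean was 10.03 there and 7.48 to 7.94 in the other ES cell arrays. Knockout brain array 1 stood apart in the mitotic genes themselves, with a mean of 8.49 over the 43 genes against 8.06 to 8.25 in the other brain arrays. The counts and medians of the knockout comparisons in ES cells and brain are given with and without these arrays.

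The promoters of the mitotic genes shared sequence. The genes were listed by role and not by sequence, but the CHR and CCAAT box were already known as elements of mitotic promoters. The counts are therefore a description of the list. RefSeq windows of 250 bases before to 50 after the annotated start (build GRCm38.p6) were on hand for 37 of the 43 measured genes and for 27025 genes in all, and the first window listed was read for each gene. CHR letters (TTTGAA or TTCGAA, on either strand) stood in 30 of the 37 windows (81.1%) and in 19.4% of all windows. CCAAT letters, on either strand, stood in 28 (75.7%) against 37.9%, and 2 or more CCAAT matches in 19 (51.4%) against 12.2%. Both motifs occurred together in 26 windows (70.3%), compared with 7.7% of all. E2F-like letters (TTCCCGC or TTGGCGC or TTCGCGC or TTGCCGC, on either strand) were found in 4 (10.8%), those of Cdk1, Ccnb1, Hmmr and Ect2, against 9.69% of all. A match is a run of letters, and whether a factor binds there was not tested.

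The CHR matches lay close to the start of transcription. Of the 37 windows, 29 (78.4%) held one within 50 bases of the annotated start, compared with 5.29% of all windows, whereas 5 (13.5%) held one from 150 to 31 bases before it, against 8.55%. CCAAT matches lay both near the start and further upstream. Within 50 bases of the start 20 windows (54.1%) held one, against 13.9% of all. From 150 to 31 bases before it 22 windows (59.5%) did, against 22.4%, and these ranges overlap.

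**Figure D1:**
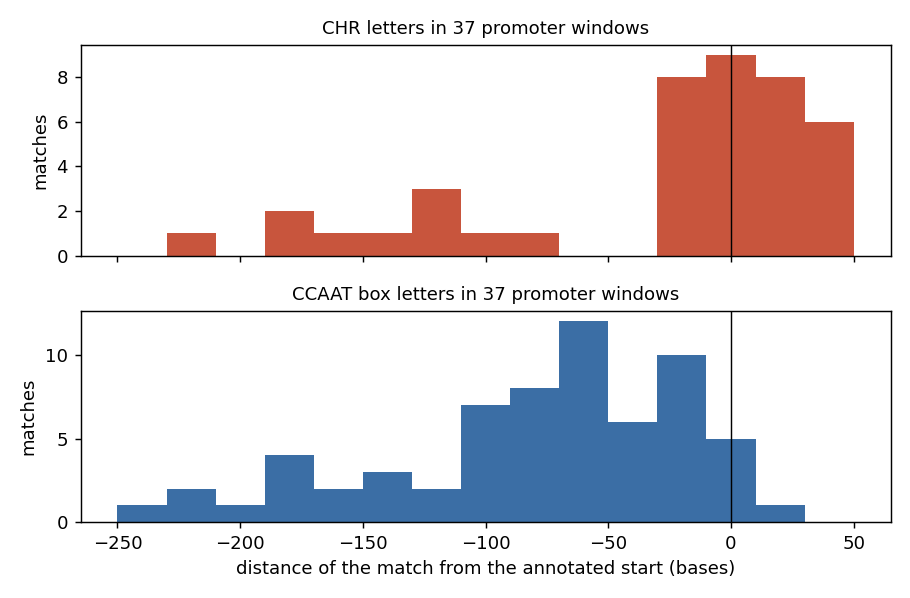
Histograms of the distance in bases from the annotated start of transcription to each CHR match (41 matches, upper panel) and each CCAAT match (64 matches, lower panel) in the promoter windows of 37 mitotic genes. Bars count matches in bins of 20 bases and the vertical line marks the start. Most CHR matches sit around the start, and most CCAAT matches sit upstream of it.

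Promoters of 6 genes are shown because they belong to the member with the smallest p in knockout fibroblasts within each role group and to Espl1, the member with the largest p. They lie at chr7:122159185-122159484 (+ strand) for Plk1, chr7:80294201-80294500 (+ strand) for Prc1, chr2:164769679-164769978 (+ strand) for Ube2c, chr15:102296043-102296342 (+ strand) for Espl1, chr1:169531415-169531714 (- strand) for Nuf2 and chr2:119618048-119618347 (+ strand) for Nusap1. Each is written 5′ to 3′ on the strand of its gene, and capitals mark CHR and CCAAT letters, which read TTCAAA and ATTGG when they lie on the other strand. In Ube2c a pair of CCAAT matches on opposite strands overlap.
Plk1: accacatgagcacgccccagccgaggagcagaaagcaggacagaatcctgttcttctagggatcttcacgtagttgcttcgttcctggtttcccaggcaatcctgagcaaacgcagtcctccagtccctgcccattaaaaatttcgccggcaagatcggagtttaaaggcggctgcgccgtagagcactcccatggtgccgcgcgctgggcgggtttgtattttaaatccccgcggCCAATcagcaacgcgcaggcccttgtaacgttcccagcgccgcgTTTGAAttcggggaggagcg
Prc1: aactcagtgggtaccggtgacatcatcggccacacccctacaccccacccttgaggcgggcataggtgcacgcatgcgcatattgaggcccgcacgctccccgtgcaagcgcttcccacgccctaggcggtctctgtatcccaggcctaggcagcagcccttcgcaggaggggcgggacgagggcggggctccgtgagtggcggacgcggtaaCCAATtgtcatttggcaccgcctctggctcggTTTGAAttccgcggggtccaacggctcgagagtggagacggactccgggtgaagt
Ube2c: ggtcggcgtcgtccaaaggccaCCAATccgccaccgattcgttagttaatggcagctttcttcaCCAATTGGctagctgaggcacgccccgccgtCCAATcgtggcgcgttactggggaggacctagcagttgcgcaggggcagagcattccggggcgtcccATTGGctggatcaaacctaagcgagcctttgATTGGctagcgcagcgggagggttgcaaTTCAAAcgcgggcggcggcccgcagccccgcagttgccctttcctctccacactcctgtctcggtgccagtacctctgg
Espl1: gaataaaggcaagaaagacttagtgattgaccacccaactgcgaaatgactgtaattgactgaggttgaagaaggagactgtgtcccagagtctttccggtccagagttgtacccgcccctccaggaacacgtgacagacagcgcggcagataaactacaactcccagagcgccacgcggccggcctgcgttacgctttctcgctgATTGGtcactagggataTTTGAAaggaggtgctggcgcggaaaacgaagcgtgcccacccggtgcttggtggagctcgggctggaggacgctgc
Nuf2: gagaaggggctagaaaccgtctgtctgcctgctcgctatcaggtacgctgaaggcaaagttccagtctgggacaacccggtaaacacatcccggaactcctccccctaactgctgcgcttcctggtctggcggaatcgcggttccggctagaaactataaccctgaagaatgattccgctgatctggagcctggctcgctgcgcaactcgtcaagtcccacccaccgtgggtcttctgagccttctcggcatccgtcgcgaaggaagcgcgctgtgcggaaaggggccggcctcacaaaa
Nusap1: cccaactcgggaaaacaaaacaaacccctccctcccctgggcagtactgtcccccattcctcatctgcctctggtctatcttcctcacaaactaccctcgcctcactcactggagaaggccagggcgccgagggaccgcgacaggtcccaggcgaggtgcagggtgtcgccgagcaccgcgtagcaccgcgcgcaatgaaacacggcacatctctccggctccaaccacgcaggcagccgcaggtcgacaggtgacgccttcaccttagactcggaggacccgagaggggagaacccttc
In Prc1 the CCAAT match began 37 bases and the CHR match 5 bases before the start, and in Plk1 the CCAAT match began 14 bases before it and the CHR match at base 31 after it. Ube2c held 6 CCAAT matches and 1 CHR match. Espl1, which was not called in fibroblasts, carried the same pair of motifs, 44 and 27 bases before its start. Nuf2 and Nusap1, which fell in fibroblasts, held none of these letters in this window.

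The first comparison asked how loss of cyclin C altered mitotic genes in fibroblasts. Of the 43 genes, 29 fell, 1 rose (Pttg1) and 13 were not called in limma. Over all genes tested, 4.93% fell and 7.11% rose. The 29 genes that fell kept between 66.6% (Ect2) and 87.2% (Foxm1) of their wild-type signal. The median log2 difference of the 43 genes was -0.32, beside 0.01 for all genes, and the knockout mean was lower for 41 of 43 genes, beside 45.6% of all genes. All 3 knockout arrays lay below all 3 wild-type arrays for 32 of the 43, where 12.5% of all genes did so, and above them for 1, where 18.4% did. At an unadjusted p below 0.05, 36 genes were lower and 1 higher, beside 10.7% and 15.9% of all genes. In a bulk sample, fewer dividing cells and less mitotic RNA in each cell cannot be told apart. Lower mitotic genes in these arrays were already known when the list was drawn up, so these counts are a description of the list.

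**Figure D2:**
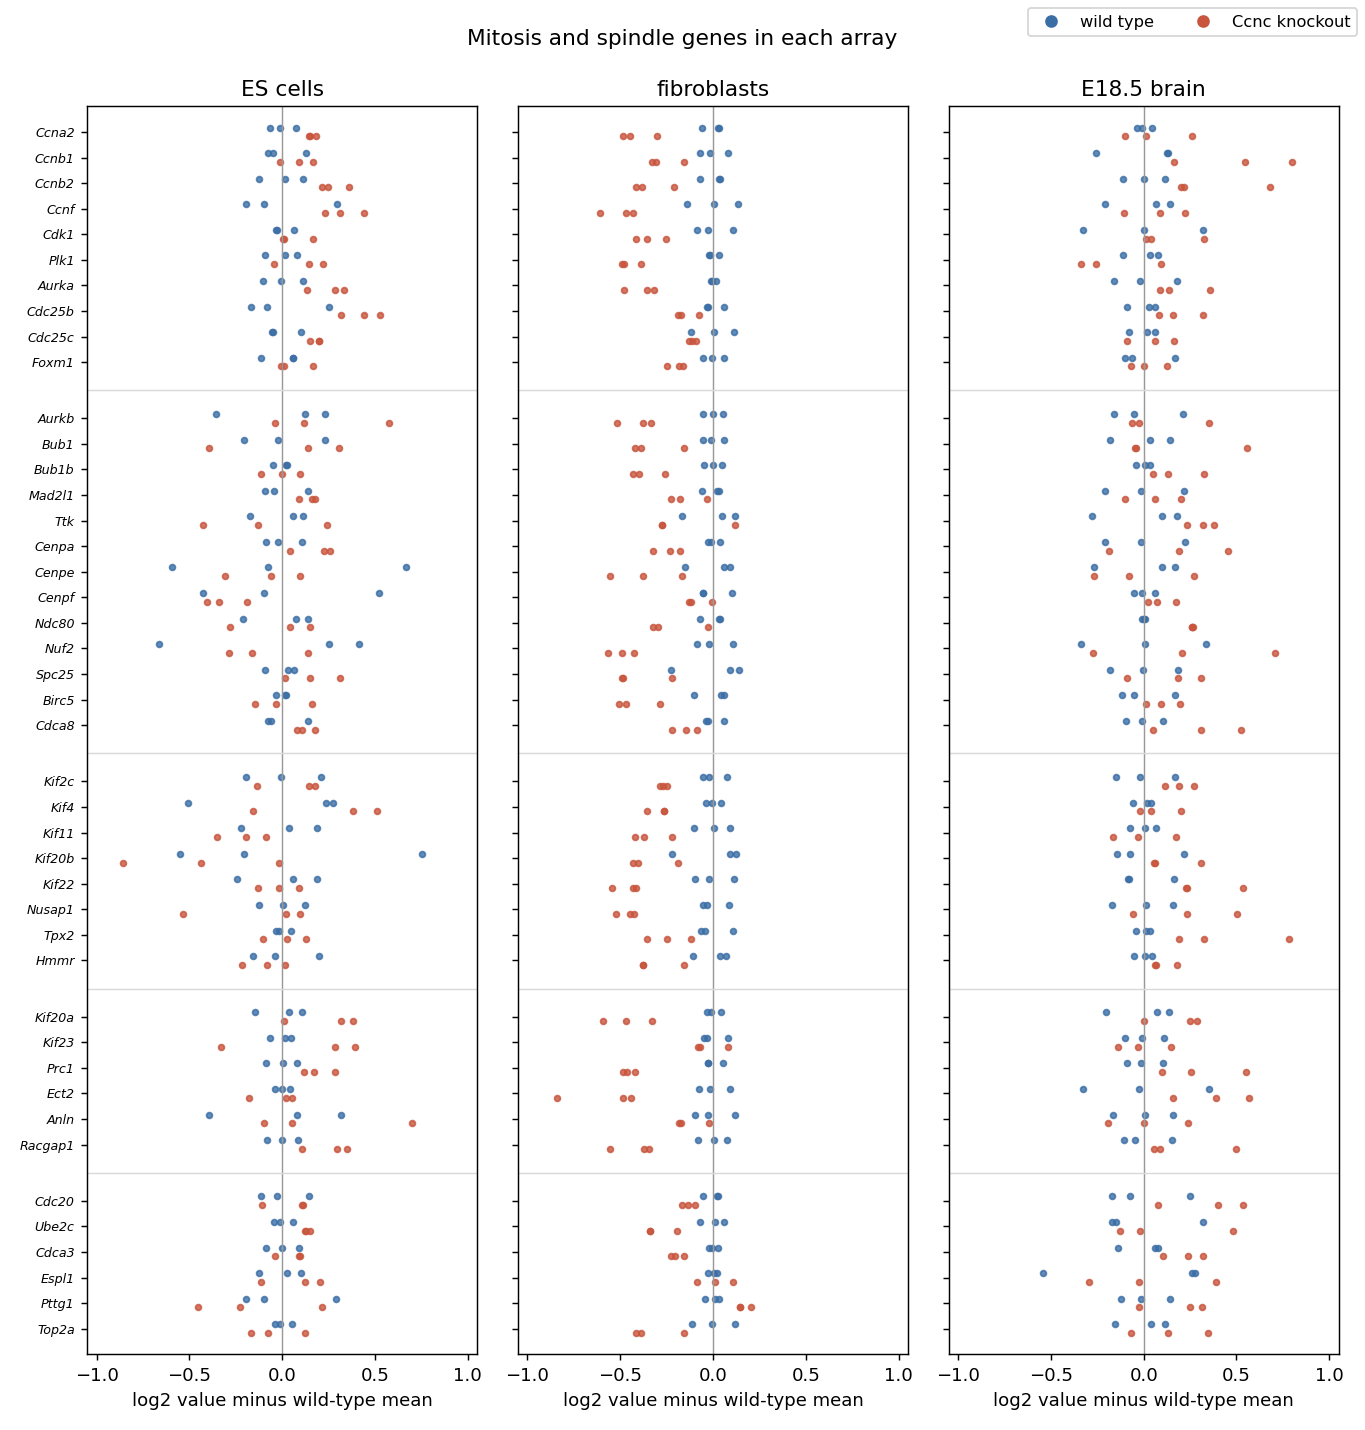
Log2 value of each of 43 mitotic genes in each array (points), minus the wild-type mean, for ES cells, fibroblasts and E18.5 brain. Genes are ordered by role group (grey lines between groups), with 3 wild-type arrays in blue and 3 Ccnc knockout arrays in red. In fibroblasts the red points of 32 genes lie wholly to the left of the blue ones, and in ES cells and brain of 0 genes.

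Among the cyclins, kinases and entry regulators, 8 of 10 fell in knockout fibroblasts (median -0.34), and Cdc25b and Cdc25c, phosphatases that activate Cdk1, were not called (-0.15 and -0.11). Plk1, the polo-like kinase that drives spindle assembly and mitotic exit, read 11.31, 11.36 and 11.31 in the wild-type arrays and 10.94, 10.84 and 10.85 in the knockout arrays. The groups were separated by several times their spread, and the difference was -0.45 (SE 0.05, adjusted p = 0.000621). Aurka, the kinase of spindle poles, read 11.01, 11.03 and 11.01 against 10.70, 10.54 and 10.66. Every knockout array was below every wild-type array, by -0.38 on average (SE 0.05, adjusted p = 0.0022). Ccna2, the cyclin of S phase and mitotic entry, read 11.54, 11.63 and 11.63 against 11.16, 11.12 and 11.30, again with no overlap (-0.41, SE 0.06, adjusted p = 0.00258). The widest difference of the group was that of Ccnf, the cyclin F subunit of a ubiquitin ligase, at -0.50 (SE 0.08, adjusted p = 0.00351). Cdk1, the kinase that these cyclins activate, fell by 0.34, and the B cyclins Ccnb1 and Ccnb2 fell by 0.26 and 0.34. Foxm1, the forkhead factor of mitotic genes, had the smallest decrease that was called (-0.20, adjusted p = 0.0383).

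In the centromere, kinetochore, checkpoint and passenger group 8 of 13 genes fell (median -0.32). Nuf2, a subunit of the NDC80 complex that grips microtubules, read 9.90, 9.96 and 10.09 in wild-type fibroblasts and 9.56, 9.42 and 9.49 in knockout fibroblasts. All knockout arrays were lower, and the difference was -0.49 (SE 0.06, adjusted p = 0.00167). Aurkb, the kinase of the chromosomal passenger complex, read 9.36, 9.41 and 9.31 against 9.03, 8.84 and 8.98 and did not overlap either (-0.41, SE 0.06, adjusted p = 0.00379). Its partner Birc5 (survivin) fell by 0.42, while Cdca8 (borealin), of the same complex, was not called at -0.15 (adjusted p = 0.11). Bub1b, which encodes the checkpoint protein BubR1, read 10.22, 10.32 and 10.27 against 9.84, 9.88 and 10.02 (-0.36, SE 0.06, adjusted p = 0.00463), again with the knockout arrays apart. Bub1, the centromeric histone gene Cenpa and the kinetochore motor gene Cenpe fell by 0.32, 0.25 and 0.37. Spc25, another NDC80 complex subunit, fell by 0.40 although 1 knockout array (10.38) reached above the lowest wild-type array (10.37). Ndc80 itself was not called at -0.21 (adjusted p = 0.127), and passed with the replicate number as a block (adjusted p = 0.0484). The checkpoint genes Mad2l1 and Ttk and the kinetochore gene Cenpf were not called either (-0.14, -0.14 and -0.08).

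Of 8 motor and spindle genes, 6 fell (median -0.32). Nusap1, a microtubule-bundling protein, read 9.94, 10.08 and 9.96 against 9.54, 9.47 and 9.57 in the knockout. The knockout arrays were all lower, with a difference of -0.47 (SE 0.06, adjusted p = 0.0012). Kif22, a chromosome-arm kinesin, read 8.96, 9.17 and 9.03 against 8.63, 8.51 and 8.64 (-0.46, SE 0.07, adjusted p = 0.00323). Kif4, the chromokinesin that works with Prc1 at the spindle midzone, read 9.90, 9.98 and 9.93 against 9.58, 9.67 and 9.67 (-0.30, SE 0.05, adjusted p = 0.00598). Neither gene overlapped between genotypes. Kif11, the kinesin that pushes spindle poles apart, Hmmr, a spindle pole protein, and Kif2c, a microtubule-depolymerising kinesin, fell by 0.34, 0.31 and 0.27. Kif20b (-0.34, adjusted p = 0.0572) and Tpx2, the activator of Aurora A on the spindle (-0.24, adjusted p = 0.0626), missed the threshold and passed it with the replicate block (adjusted p = 0.0079 and 0.0381).

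Cytokinesis genes had the lowest median of the 5 groups, -0.44, with 4 of 6 genes lower. Prc1, which bundles the midzone microtubules and had the smallest p of all 43 genes, read 11.10, 11.19 and 11.11 in wild type and 10.67, 10.65 and 10.71 in the knockout. The groups stood well apart, by -0.46 (SE 0.05, adjusted p = 0.000578). Kif20a, a midzone kinesin, read 10.27, 10.34 and 10.29 against 9.83, 9.70 and 9.96 (-0.46, SE 0.07, adjusted p = 0.00296), without overlap. Racgap1, of the centralspindlin complex, read 9.79, 9.85 and 9.70 against 9.43, 9.22 and 9.41 (-0.43, SE 0.07, adjusted p = 0.00485), also without overlap. Ect2, the exchange factor that centralspindlin recruits to activate RhoA, had the widest difference of the 43 genes, -0.59 (SE 0.10, adjusted p = 0.00563), with array values of 9.75, 9.85 and 9.69 against 9.28, 8.92 and 9.32. Kif23, the other centralspindlin subunit, read 8.23, 8.36 and 8.25 against 8.21, 8.20 and 8.36 and was not called (-0.02, SE 0.07, adjusted p = 0.861). Its groups overlapped, and those of its partner Racgap1 did not. Anln, which encodes the cleavage furrow protein anillin, was not called at -0.12 (adjusted p = 0.298).

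The anaphase and chromosome group was mixed, with 3 of 6 genes lower, 1 higher and a median of -0.16. Ube2c, the ubiquitin-conjugating enzyme of the anaphase-promoting complex, read 11.62, 11.75 and 11.70 against 11.36, 11.36 and 11.50 (-0.29, SE 0.06, adjusted p = 0.0106). Cdca3, a trigger of mitotic entry, read 10.79, 10.84 and 10.81 against 10.61, 10.59 and 10.66 (-0.20, SE 0.04, adjusted p = 0.0192). For Top2a, the topoisomerase that untangles sister chromatids, the values were 11.44, 11.67 and 11.54 against 11.14, 11.17 and 11.40 (-0.32, SE 0.08, adjusted p = 0.0295). All 3 genes had their knockout arrays below their wild-type arrays. Pttg1, which encodes securin, the inhibitor of separase, went the other way, with 10.92, 10.95 and 10.87 against 11.06, 11.11 and 11.06. It rose by 0.16 (SE 0.04, adjusted p = 0.0404), and a second Pttg1 probe set differed by 0.17 in the same direction. This rise was not called after quantile normalization (adjusted p = 0.13), without an intensity trend (0.0813) or in 1 fit of all 18 arrays (0.893). It kept its call in only 1 of the 6 fits that left out 1 array. Espl1, which encodes separase itself, read 8.67, 8.69 and 8.64 against 8.58, 8.67 and 8.77 and was not called (0.01, SE 0.06, adjusted p = 0.941). Cdc20, the activator of the anaphase-promoting complex, was not called at -0.13 (adjusted p = 0.0821), although its groups did not overlap.

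**Figure D3:**
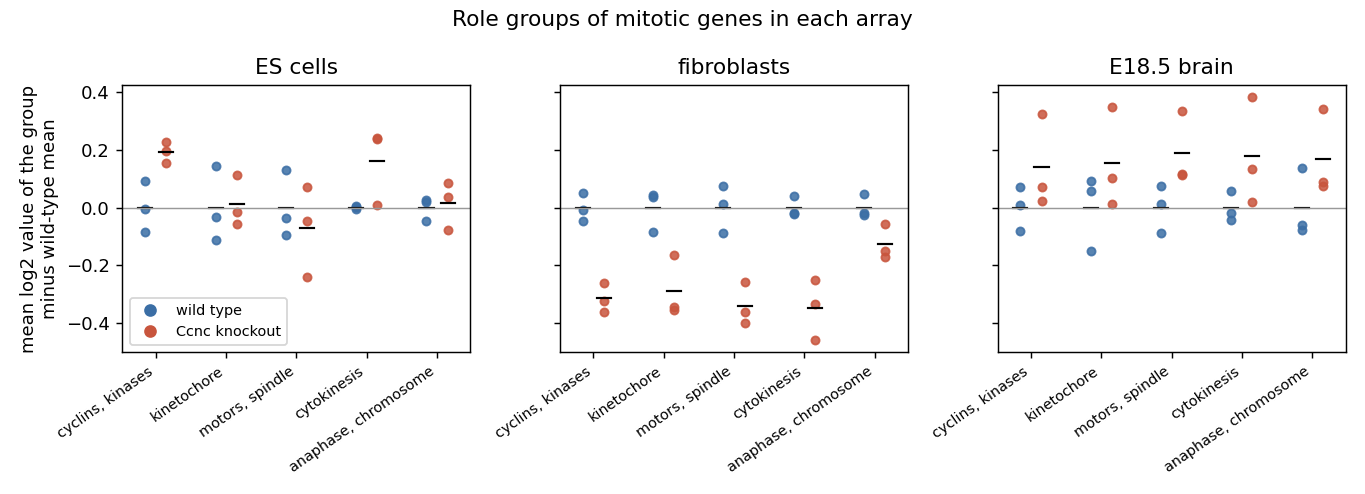
Mean log2 value over the genes of each role group in each array (points), minus the wild-type mean, in ES cells, fibroblasts and E18.5 brain. Short black lines are means of 3 arrays, with wild type in blue and Ccnc knockout in red. In fibroblasts all 5 groups have their 3 knockout arrays below their 3 wild-type arrays, and the anaphase and chromosome group moved least.

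Some of the fibroblast calls were lost when 1 array was left out. Leaving out each array in turn gave 18 to 32 genes lower: 19 and 20 without wild-type array 2 or 3, and 18 without knockout array 2. Calls over all genes dropped as well in these fits, from 842 lower to 426, 528 and 407. The median of the 43 genes was -0.27, -0.29 and -0.29 there. Of the 30 called genes, 18 kept their call in all 6 of these fits, among them Plk1, Aurka, Ccna2, Nuf2, Bub1b, Kif22, Prc1, Ect2 and Racgap1. The other 12 lost it at least once, namely Ccnb1, Foxm1, Bub1, Cenpa, Cenpe, Spc25, Kif11, Hmmr, Ube2c, Cdca3, Top2a and Pttg1. Foxm1 and Pttg1 each kept it in only 1 of the 6. In a fit of all 18 arrays with 1 spread, 5 genes stayed lower (Ccna2, Prc1, Plk1, Bub1b and Birc5) and 0 higher. Over all genes that fit called 114 lower and 96 higher. The same-numbered differences were lower in all 3 pairs for 39 of 43 genes, where 20.9% of all genes were, and higher in all 3 for 1, Pttg1, where 28.1% were. Cdc25c, Kif23 and Espl1 differed in sign between pairs. Smooth muscle markers moved in the same arrays: 4 of 8 rose in the main fit (Myh11, Cnn1, Myl9 and Tpm1), where 7.11% of all genes rose. The mean of these 8 was 11.86 to 12.05 in wild-type and 12.24 to 12.42 in knockout fibroblasts. The mean of 8 fibroblast markers was 12.40 to 12.47 in wild type and 12.23 to 12.24 in the knockout. Of these, 3 fell, where 4.93% of all genes fell, and 2 had a higher knockout mean. Their median difference was -0.09, and the lowest single difference was -1.02. The part of both marker sets in the mitotic result was not tested.

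Other genes of the mitotic machinery were counted in knockout fibroblasts from lists that did not include the 43. These counts stand beside the 4.93% of all genes that fell and the 7.11% that rose, and the lists themselves were not tested. Of 17 condensin and cohesin genes, 10 fell and 0 rose (median -0.26), among them Smc4 (-0.56) and Ncapd2 (-0.32) of condensin and Rad21 (-0.49), the cohesin subunit cut by separase. Among 19 further outer kinetochore, checkpoint and passenger genes, 8 fell and 0 rose (median -0.21), including the checkpoint gene Zwilch (-0.53), Knl1 (-0.45), the scaffold that binds Bub1 and the NDC80 complex, and Ska2 (-0.38). Of 17 inner centromere genes, 7 fell and 0 rose (median -0.21), including Cenpl (-0.55), Mis18a (-0.46), which helps load Cenpa, and Cenpq (-0.33). Of 10 further entry kinases, phosphatases and Cks genes, 6 fell and 0 rose (median -0.20), with Melk (-0.47), Nek2 (-0.37), the centrosome kinase, and Cks1b (-0.23) as those of smallest p.

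Among 17 other motors and spindle factors, 3 fell and 1 rose (median -0.19). They were the kinesins Kif18a (-0.62) and Kif18b (-0.37) and the spindle protein Ckap2l (-0.27), and Kif3a, a kinesin of cilia, rose by 0.21. Among 9 other cytokinesis factors, 3 fell and 0 rose, Septin7 (-0.49), the midbody protein Cep55 (-0.38) and Arhgap11a (-0.35). Of 15 genes of the anaphase-promoting complex and its regulators, 1 fell, its inhibitor Fbxo5 (-0.52), and 1 rose, the subunit Anapc13 (0.35), with a median of -0.04, which is near the share of all genes in both directions. Of 7 regulators of mitotic transcription, 2 fell, Lin54 (-0.55), the MuvB subunit that binds CHR elements, and Mybl2 (-0.27). Nfyb, an NF-Y subunit that binds CCAAT boxes, was not called (-0.23). Among DNA replication genes 7 of 17 fell and 0 rose (median -0.16), with the ribonucleotide reductase genes Rrm1 (-0.40) and Rrm2 (-0.48) and the polymerase gene Pola1 (-0.44) as examples.

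**Figure D4:**
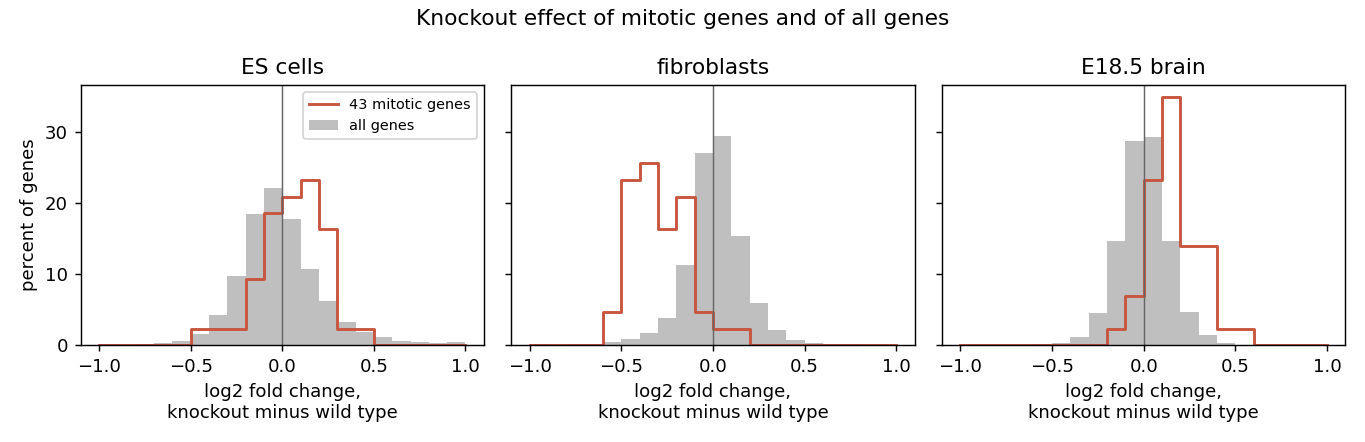
Percent of genes (vertical axis) by log2 difference, knockout minus wild type (horizontal axis, bins of 0.1), for all 17091 genes (grey bars) and for the 43 mitotic genes (red line) in ES cells, fibroblasts and E18.5 brain. In fibroblasts the red line is centred near its median of -0.32 and the grey bars near 0.01, and in brain the red line is centred near 0.15.

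Motifs were also counted by the fibroblast result. Of the 25 genes with a promoter window that fell in fibroblasts, 20 had CHR letters, and of the other 12 genes 10 did. CCAAT letters stood in 21 of 25 and 7 of 12. All 4 genes with E2F-like letters were among those that fell. These are counts without a test.

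In ES cells the same comparison called none of the 43 genes in limma, where 0.00585% of all genes fell and 0.00585% rose. At an unadjusted p below 0.05, 0 mitotic genes were lower and 3 higher (Cdc25b, Ccnb2 and Aurka), beside 4.34% and 4.12% of all genes. The knockout mean was higher for 28 of 43 genes, while it was lower for 57.3% of all genes, and the median was 0.06 against -0.03 for all genes. The cyclins, kinases and entry regulators had a higher knockout mean in 10 of 10 genes (median 0.17), and 5 of these 10 did not overlap between genotypes, where 6.34% of all genes lay wholly higher. Over the 43 genes, 8 lay wholly higher and 0 wholly lower, where 9.3% of all genes lay wholly lower. Cytokinesis genes had a higher knockout mean in 5 of 6 (median 0.20), and 2 of these lay wholly higher. The remaining groups were mixed, with medians of -0.06 for motors and spindle, -0.01 for the kinetochore group and 0.04 for anaphase and chromosome. Replicate spread was wide for some genes, up to an SD of 0.68 for Kif20b in wild type. Without knockout array 1 the median was 0.08, the knockout mean was higher for 35 of 43 genes, where 43.9% of all genes were, and 4 genes were higher at an unadjusted p below 0.05, where 4.45% were. In that fit 11 genes lay wholly higher and 1 wholly lower, where 11.4% of all genes lay wholly higher and 2955 of 17091 wholly lower. The cyclins and kinases kept 10 of 10 higher means. The median was 0.10 without both arrays numbered 1, 0.02 without knockout array 2 and 0.03 after quantile normalization. In the fit without knockout array 2 the knockout mean was higher for 24 of 43 genes, where 42.2% of all genes were. The count of 3 genes higher at an unadjusted p below 0.05 became 0 without wild-type array 2 and 1 without wild-type array 3. Of all genes, 2.65% and 3.02% were higher in these fits.

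Cdc25b, the phosphatase that starts Cdk1 activation, had the largest ES cell difference of its group. It read 9.49, 9.08 and 9.16 in wild type and 9.68, 9.56 and 9.77 in the knockout, all higher, a difference of 0.43 (SE 0.14, adjusted p = 0.547). With 1 spread over all 18 arrays the adjusted p of Cdc25b was 0.0293. Racgap1 read 10.18, 10.01 and 10.09 against 10.20, 10.44 and 10.38, and Ube2c read 12.84, 12.77 and 12.74 against 12.93, 12.90 and 12.91. Both were higher in every knockout array without being called (0.25 and 0.13, adjusted p = 0.601 and 0.649). Cenpa read 12.82, 12.69 and 12.63 against 12.97, 12.94 and 12.76 and overlapped (0.18, adjusted p = 0.643). Kif11 read 10.56, 10.71 and 10.30 against 10.17, 10.44 and 10.33, with a lower mean and overlapping arrays (-0.21, adjusted p = 0.68, and -0.14 without knockout array 1).

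In E18.5 brain limma also called 0 of the 43 genes, where 0.00585% of all genes fell and 0% rose. At an unadjusted p below 0.05, 0 mitotic genes were lower and 9 higher, beside 2.97% and 4.36% of all genes. The knockout mean was higher for 39 of 43 genes, with Plk1, Cenpe, Kif11 and Kif23 as the exceptions, while 49.5% of all genes were lower. The median was 0.15, beside 0.00 for all genes, and 10 of 43 genes had all knockout arrays above all wild-type arrays, as did 7.98% of all genes, while 0 lay wholly lower, where 6.06% of all genes did. All 5 role groups had a positive median, from 0.10 for cyclins and kinases to 0.20 for cytokinesis. These counts depended on single arrays. Without knockout array 1, which stood highest, the median was 0.06 and the knockout mean was higher for 30 of 43 genes, where 50.9% of all genes were. In that fit 3 genes were higher and 1 lower at an unadjusted p below 0.05. Of all 17091 genes, 3.31% were higher and 346 genes lower. Of the 43 genes, 12 lay wholly higher and 1 wholly lower, where 12.6% of all genes lay wholly higher and 1692 genes wholly lower. The role group medians then ran from 0.03 for cyclins and kinases to 0.10 for motors and spindle. Without wild-type array 2 the median was 0.10, with 2 genes higher at an unadjusted p below 0.05, where 3.15% of all genes were. Between same-numbered arrays 24 of 43 genes were higher in all 3 pairs and 0 lower, where 18.3% and 19.1% of all genes were. By pair, 40, 33 and 32 genes were higher, with medians of 0.24, 0.13 and 0.08. In the same arrays neuron markers averaged 11.96 to 12.07 in wild type and 11.79 to 11.94 in the knockout, with a lower mean in 7 of 8, and neural progenitor markers averaged 9.81 to 10.01 and 9.90 to 10.06. The part of these markers in the mitotic result was not tested.

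Ccnb1, the main mitotic cyclin, had the widest brain difference. It read 8.28, 7.89 and 8.28 in wild type and 8.95, 8.32 and 8.70 in the knockout, all higher, by 0.50 (SE 0.17, adjusted p = 0.627, and 0.114 with the replicate block). Tpx2 read 7.34, 7.26 and 7.32 against 8.09, 7.63 and 7.50 (0.43, SE 0.14, adjusted p = 0.627), with knockout array 1 highest and no overlap. Without that array the difference was 0.26 for Tpx2, 0.36 for Ccnb1 and 0.18 for Prc1. Ndc80 was the least variable, with 7.08, 7.10 and 7.10 against 7.36, 7.36 and 7.36, a difference of 0.26 (SE 0.07, adjusted p = 0.627). Its arrays did not overlap, and the gene was nevertheless not called once all 17091 genes were considered. Prc1 read 8.78, 8.66 and 8.59 against 9.23, 8.77 and 8.93, and Cdc20 read 9.64, 9.22 and 9.31 against 9.92, 9.47 and 9.79. Each had 1 knockout array below the highest wild-type array (0.30 and 0.34, adjusted p = 0.662 and 0.676).

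Whether the knockout effect differed between cell types was tested on all 18 arrays. Against ES cells, the fibroblast effect was lower for 4 of the 43 genes, Ccnf (-0.83, SE 0.18, adjusted p = 0.0415), Prc1 (-0.65, SE 0.14, adjusted p = 0.0361), Aurka (-0.63, SE 0.14, adjusted p = 0.0395) and Ccna2 (-0.57, SE 0.12, adjusted p = 0.0353), where 0.55% of all genes were called lower and 0.445% higher. In ES cells these genes had higher knockout means. Ccna2 read 12.56, 12.51 and 12.65 in wild-type ES cells and 12.72, 12.76 and 12.72 in knockout ES cells, and Prc1 read 11.57, 11.49 and 11.40 against 11.66, 11.77 and 11.61. Neither overlapped, in the direction opposite to fibroblasts. Aurka read 12.09, 11.99 and 12.21 against 12.43, 12.38 and 12.23, and Ccnf read 12.10, 11.61 and 11.71 against 12.25, 12.12 and 12.04, of which only Ccnf overlapped among these 4 genes. The median difference over the 43 genes was -0.34.

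Against brain, the fibroblast effect was lower for 1 gene, Prc1 (-0.76, SE 0.14, adjusted p = 0.0283), where 0.222% of all genes were called lower and 0.111% higher. The point estimate was lower for all 43 genes, with a median of -0.47. With the replicate number as a block 10 genes were lower against ES cells and 7 against brain, and with array weights 24 were lower against brain. Calls over all 17091 genes rose too. The block moved those lower against ES cells from 94 to 312 and those lower against brain from 38 to 95. Array weights gave 626 lower and 899 higher against brain, where the main fit gave 38 and 19. None of the 5 calls was kept in every fit that left out 1 array, and these fits gave 0 to 7 genes against ES cells and 0 to 3 against brain. Over all genes they called 21 to 218 lower against ES cells and 5 to 71 against brain. The count fell to 0 against ES cells without wild-type ES cell array 2, without any of the 3 wild-type fibroblast arrays or without knockout fibroblast array 1 or 2. Against brain it fell to 0 without any fibroblast array, without wild-type brain array 1 or 2 and without knockout brain array 1. Both comparisons share the fibroblast arrays. Brain and ES cells differed for 0 genes, where 0.158% of all genes were called lower and 0.117% higher, with a median of 0.11 that was -0.04 without knockout brain array 1.

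The wild-type arrays placed the mitotic genes in one order of cell types. In ES cells 40 of 43 genes were higher than in fibroblasts and 0 lower, where 40.1% of all genes were higher, and the median difference was 1.18. In brain 42 of 43 were lower than in fibroblasts, where 35.4% of all genes were lower (median -1.90). All 43 were lower in brain than in ES cells, where 47.7% of all genes were lower (median -3.17). For 38 of 43 genes every ES cell array was above every fibroblast array and every fibroblast array above every brain array. The share of all genes in this order was not counted, so how unusual it is cannot be read from this count. The median difference over all genes was not 0 either, at 0.14 for ES cells minus fibroblasts and -0.22 for brain minus ES cells. These median differences became 0.04 and -0.07 after quantile normalization, where the mitotic medians were 0.96 and -2.97. There 35 mitotic genes and 5643 of all 17091 genes were higher in ES cells than in fibroblasts.

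**Figure D5:**
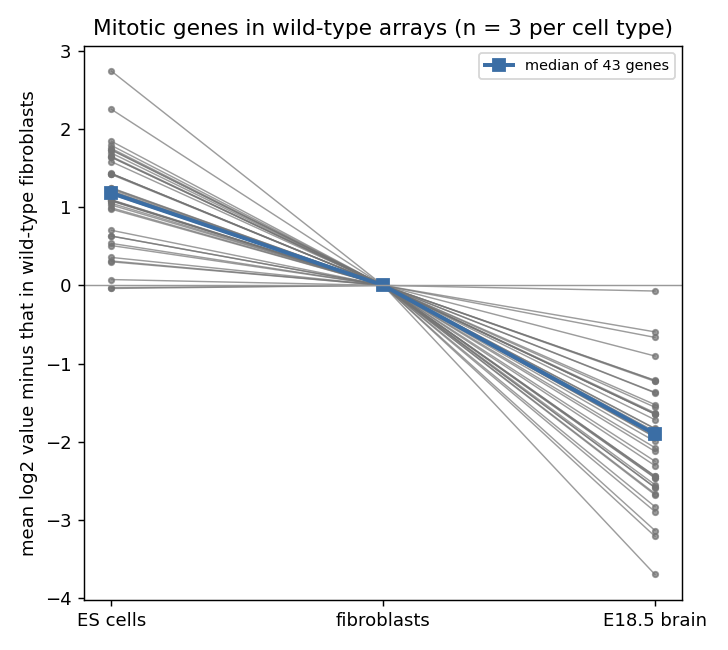
Mean log2 value (3 wild-type arrays) of each of 43 mitotic genes in ES cells, fibroblasts and E18.5 brain, minus its own mean in wild-type fibroblasts. Grey lines are genes and the blue line is their median, at 1.18 in ES cells and -1.90 in brain.

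The exceptions were few. Cdc25b, Cenpe and Nuf2 were not called between ES cells and fibroblasts, and Cenpf was not called between brain and fibroblasts. Cdc25b changed least over the cell types, from 9.24 ± 0.22 (SD, n = 3) in ES cells and 9.28 ± 0.05 in fibroblasts to 8.69 ± 0.08 in brain. For Cenpf the levels were 9.96 ± 0.48, 8.53 ± 0.09 and 8.46 ± 0.06, so that its fibroblast and brain levels differed by less than their spread. Nuf2 stood at 10.06 ± 0.58, 9.98 ± 0.10 and 7.31 ± 0.34. Kif20a had the steepest step from fibroblasts to brain (10.30 ± 0.04 to 6.60 ± 0.18), and Espl1 the steepest from ES cells to fibroblasts (11.40 ± 0.12 to 8.66 ± 0.03). In Ccnb2 the fall from ES cells to brain was the widest of the 43 genes, from 12.63 ± 0.12 to 8.17 ± 0.11.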

How the data were processed

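Total RNA of 18 samples was hybridised as biotin-labelled cRNA, 1 array a sample, per the labels' protocols. The deposited log2 values came from RMA (robust multi-array average), which summarises and quantile-normalizes probe signals, according to the submitters' processing notes. The sources used here do not give its version, the array type or whether all samples were processed in 1 run. Because RMA equalises array distributions, a shift common to most genes would be hidden. Arrays give no read depth, and 3 arrays a group limit the precision.

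Of 24185 probe sets, 64 were controls, and 22560 of the other 24121 matched 1 symbol of the RefSeq table (GRCm38.p6). The probe set of highest mean gave 17091 genes. Of the 43 measured genes, 11 had several probe sets, with distinct values for Ttk and Pttg1. Limma 3.58.1 (lmFit, eBayes with trend) in R 4.3.3 tested each cell type alone, and 1 fit of 18 arrays with 6 group means tested differences between cell types and wild-type levels. Scripts were checked on simulated data. Figures used matplotlib 3.10.9 in Python 3.11.15.

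Genes, lists, motifs and tests were chosen with earlier results of these data known. Array values are given for the 3 genes of smallest p in fibroblasts per role group, the 1 of smallest p in ES cells and in brain, and genes whose effect differed between cell types; up to 3 genes of smallest p are named per other list. Kif3a, the array values of Ect2, Pttg1, Espl1 and Kif23 and the wild-type examples were picked after their values were seen. Alternatives were the replicate number as a block, 1 fit of 18 arrays, other probe set choices, a filter at the 40th percentile, quantile normalization, median centring, no trend, a robust prior, array weights and leaving out each array.

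To check whether replicate numbers pair arrays, each array's deviation from its group mean was correlated across genes with that of its same-numbered partner. This gave 0.363, 0.165 and 0.19 in fibroblasts, 0.287, 0.35 and 0.469 in brain and 0.374, 0.318 and 0.081 in ES cells. The labels do not say that the numbers pair arrays, so no main fit used them. The block was run as an alternative in every cell type, and same-numbered differences are given for fibroblasts and brain only.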

Additional observations from a re-analysis of the deposited data

Results flagged for a closer look

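The knockout effect of 4 mitotic genes differed between fibroblasts and ES cells by a test of the difference itself (limma, 18 arrays). The fibroblast effect minus the ES cell effect was -0.83 for Ccnf, -0.65 for Prc1, -0.63 for Aurka and -0.57 for Ccna2, in log2 units. For Prc1 it also differed between fibroblasts and brain, by -0.76. In each case the 3 knockout fibroblast arrays lay below the wild-type arrays, and the knockout mean in the other cell type was higher than wild type. Of all genes, 0.55% were called lower and 0.445% higher against ES cells, and 0.222% and 0.111% against brain. None of these mitotic calls was kept in every fit that left out 1 array. In the 18-array fit the fibroblast effect itself was not called for Ccnf and Aurka (limma adjusted p = 0.0767 and 0.0735).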

How the results depend on the processing

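No called result reversed. Pairing the arrays by their number (replicate block) gave 32 genes lower and 1 higher in fibroblasts, 0 called in ES cells and brain, and moved the counts of genes with a lower effect in fibroblasts to 10 against ES cells and 7 against brain. Over all genes the block moved the lower calls in fibroblasts from 842 to 1201. Those against ES cells moved from 94 to 312, and those against brain from 38 to 95. Within ES cells the block called 0 of all genes lower and 1 higher, and within brain 11 lower and 4 higher. The block changed no other count of called members by over 1.5 times, and with it the Ccnc difference in ES cells was not called (adjusted p = 0.0677). In 1 fit of all 18 arrays 5 genes were lower and 0 higher in fibroblasts and 1 higher in ES cells, and the rise of Pttg1 was lost there, under quantile normalization and without a trend (0 higher each). Over all genes the fit of 18 arrays called 114 lower in fibroblasts and 357 higher in ES cells. Against brain the count of 1 became 2 with the filter at the 40th percentile, 2 with quantile normalization and 24 with array weights. The filter fit called 25 of its 10254 genes lower against brain, and the quantile fit 49 of 17091. Over all genes array weights called 626 lower and 899 higher against brain, where the main fit called 38 and 19. The wild-type median of ES cells minus fibroblasts was 0.96 under quantile normalization, and that of brain minus ES cells was -2.97 there and -3.06 with median centring. Leaving out each array in turn gave 18 to 32 genes lower and 0 to 1 higher in fibroblasts, 0 to 7 lower against ES cells and 0 to 3 against brain. Over all genes these fits called 407 to 909 lower in fibroblasts. The median difference then ran from -0.52 to -0.37 for fibroblasts minus brain, from -0.036 to 0.16 for brain minus ES cells, and from -3.32 to -3.17 for wild-type brain minus ES cells. Over the 43 genes under every alternative, fibroblast calls were lost in 73 of 480 values and gained in 17 of 208 (6 genes). For fibroblasts minus ES cells 34 of 108 were lost and 19 of 1053 gained (8 genes), and for fibroblasts minus brain 9 of 27 were lost and 37 of 1134 gained (23 genes, 23 of the values with array weights). In ES cells 1 of 731 was gained, and in brain 0 of 688. For the 60 named differences, which include genes of the other lists, 901 of 1019 alternatives kept direction and side of the threshold, 111 lost a call and 7 gained one. Over all genes, calls in fibroblasts were 40.9% lower, and 50.7% under quantile normalization. Between wild-type brain and ES cells 64.7% of calls were lower, and 54.6% under quantile normalization, and for the effect in fibroblasts minus ES cells the shares were 55.3% and 66.2%.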
